A study of Mus musculus with 11 samples.

Results

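miR-221 and miR-222 are a pair of microRNAs cut from neighbouring hairpins on the mouse X chromosome. Their 4 mature arms, mmu-miR-221-5p, mmu-miR-221-3p, mmu-miR-222-5p and mmu-miR-222-3p, are 4 of the 1966 mature miRNAs listed in a small RNA count table of mouse embryonic stem cells. The 4 arms were chosen by name after their counts in these same libraries had been seen, so the differences between groups given for them are a description and carry no test. All 4 had enough counts to be among the 730 miRNAs kept for the fit across all miRNAs.

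The cells came from 1 strain label, grew feeder-free, with LIF and the inhibitors CHIR99021 and PD0325901, and were profiled in 11 libraries. Of these, 3 libraries were DGCR8 -/- cells that had not been transfected and had received doxycycline at 300 ng/mL for 48 h; all 3 carry the name of clone 261, so they may be repeats of 1 clone. Clones 10, 12 and 16, labelled DGCR8 wt/wt, and clones 8, 13 and 15, labelled DGCR8 E518K/E518K, carried a Sleeping Beauty (pSB) vector for a Flag-tagged wild-type or E518K DGCR8 brought in with the SB100X transposase, and received the same doxycycline treatment, 1 library a clone. Clone 10 and clone 8 were each also sequenced once without doxycycline. The labels do not say whether the transfected clones also lack their own DGCR8. These groups are called below DGCR8 -/-, induced wild type, induced E518K, untreated wild type and untreated E518K.

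Most microRNAs begin as a hairpin in a long primary transcript, which DGCR8 and the nuclease DROSHA cut out of it before DICER trims it to a duplex of 2 arms, named 5p and 3p for the side of the hairpin they come from. DGCR8 is the RNA-binding partner in that first cut, and E518K is a substitution in it known from human tumours. miR-221 and miR-222 are made from 1 primary transcript and are known for repressing Cdkn1b, the cell cycle inhibitor p27, and the receptor gene Kit. In embryonic stem cells the most abundant microRNAs are instead those of the miR-290 to miR-295 cluster, several of which repress Cdkn1a, the cell cycle inhibitor p21.

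Mature sequences in RefSeq (GRCm38.p6) matched 3 of the 4 arms (not mmu-miR-222-5p), and are shown because the 3p arms carry the same seed, bases 2 to 8 of the mature strand counted from its 5′ end, which is given in capitals.
mmu-miR-221-5p: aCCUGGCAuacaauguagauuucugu
mmu-miR-221-3p: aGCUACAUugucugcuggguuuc
mmu-miR-222-3p: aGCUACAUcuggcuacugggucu
The 3p arms were identical over their first 8 bases, differed first at position 9 (U9C, miR-221-3p first), and had the same base at 11 of 23 positions when aligned from the 5′ end without gaps. The seed of mmu-miR-221-5p was found in no other mature sequence of that table. The seed GCUACAU was shared by 3 mature sequences in all; the third, mmu-miR-1928, had 0 counts in all 11 libraries, where 6 counts would have been 1.11 to 19.1 CPM (counts per 1000000 counts, scaled as described below).

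Both hairpins lie on the minus strand of chromosome X in GRCm38.p6, Mir222 at 19146893 to 19146971 and Mir221 at 19146294 to 19146388, with 504 bases between them. They are printed whole, 5′ to 3′, because the results below follow the arms and the balance of the 2 hairpins; capitals mark the mature arms listed in RefSeq.
Mir222: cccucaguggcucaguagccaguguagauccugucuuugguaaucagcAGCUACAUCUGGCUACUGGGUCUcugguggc
Mir221: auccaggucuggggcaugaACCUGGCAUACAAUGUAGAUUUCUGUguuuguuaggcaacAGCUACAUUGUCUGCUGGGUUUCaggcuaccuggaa
No other gene in RefSeq or GENCODE M21 overlapped either hairpin, so the annotation holds no host gene for them. The nearest annotated gene upstream was the long noncoding Gm14636 on the same strand, 9499 bases away in RefSeq. The RefSeq hairpin of Mir221 is 95 bases long and that of Mir222 79, against a median of 79 for the 1005 hairpins in that table. Folded with RNAfold, Mir222 had a minimum free energy of -40.7 kcal/mol and Mir221 of -42.8 kcal/mol, which is -0.515 and -0.451 kcal/mol per base against a median of -0.406. The letters UGU, searched on the transcribed strand and known as a motif of the apical loop, stood in neither folded terminal loop and in that of 8.56% of the 1005 hairpins, while both hairpins held UGU elsewhere, as did 80.8% of all.

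Total miRNA counts ran from 166676 to 208846 in DGCR8 -/-, 3394216 to 6128734 in the induced wild-type clones and 1050564 to 1797240 in the induced E518K clones; untreated wild type had 1421247 and untreated E518K 264507. Between 86.6 and 93.6% of the counts from 1 to 40 in each library were even, as if most small RNAs had been counted 2 times, so 6 counts are taken here as the limit that a count of 0 allows. Levels are CPM on library sizes scaled by trimmed means (TMM), and the ranges after them are exact 95% Poisson intervals on the halved counts, which cover counting error only. As a check of the labels, mmu-miR-295-3p of the stem cell cluster stood at 63.5 CPM in DGCR8 -/- and 19052 CPM in induced wild type (log2 change -8.23 ± 0.54 SE, edgeR quasi-likelihood adjusted p = 1.5e-44). Replicates were separate clones in the induced wild type and E518K groups, but no label names separate cultures of clone 261, so the spread among those 3 libraries may be technical. In such bulk libraries fewer cells with a miRNA and fewer copies per cell cannot be told apart.

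mmu-miR-222-3p, the most abundant of the 4 arms in induced E518K and in both untreated clones, was with TMM nearly as rare in induced wild type as in DGCR8 -/- and higher in the other groups. It stood at 79.5, 93.2 and 104 CPM in wild-type clones 10, 12 and 16, a mean of 92.3 ± 12.4 (SD, n = 3). In E518K clones 8, 13 and 15 it stood at 698, 599 and 592 CPM, a mean of 629.9 ± 59.2 (SD, n = 3). The lowest E518K library was thus far above the highest wild-type library. In the 3 DGCR8 -/- libraries it stood at 64.0, 78.0 and 67.1 CPM, a mean of 69.7 ± 7.39 (SD, n = 3), on only 30, 26 and 22 counts. These 3 values lay just under the wild-type range, but their counting intervals (35.8 to 105, 41.5 to 133 and 33.5 to 120 CPM) covered that of clone 10 (63.1 to 98.8 CPM). Untreated wild type gave 320.7 CPM (264 to 387) and untreated E518K 683 CPM (560 to 825). Untreated E518K therefore sat with TMM inside the range of the induced E518K clones, and untreated wild type between the induced groups. The authors' own scaled values (pRPM) have the same total in all libraries of a doxycycline-treated group, and that total differs between groups. They spread the groups otherwise: 12.2 ± 1.11 in DGCR8 -/-, 60.2 ± 24.8 in induced wild type and 386 ± 94.4 in induced E518K (SD, n = 3 each). The untreated libraries of wild type and E518K had 106 and 113, both outside the induced E518K range of 283 to 469.

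mmu-miR-221-3p, with the same seed, followed another order. It stood at 91.2, 163 and 128 CPM in induced wild type (127 ± 35.9, SD, n = 3) and at 609, 686 and 446 CPM in induced E518K (580.4 ± 123, SD, n = 3). In DGCR8 -/- it stood at 23.4, 42.0 and 30.5 CPM (32.0 ± 9.37, SD, n = 3), on 11, 14 and 10 counts. The 3 induced groups did not overlap, with DGCR8 -/- lowest and E518K highest. Untreated wild type (209.9 CPM, 164 to 264) and untreated E518K (200.1 CPM, 136 to 283) lay with TMM between induced wild type and induced E518K and differed by less than counting error. On pRPM they stood elsewhere: untreated wild type at 69.5 lay inside the induced wild-type range of 51.4 to 109, and untreated E518K at 33.0 lay below it.

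mmu-miR-221-5p, the partner strand of the first hairpin, was scarcer. Its levels were 16.7, 26.1 and 20.6 CPM in induced wild type (21.1 ± 4.74, SD, n = 3) and 113, 107 and 180.2 CPM in induced E518K (134 ± 40.5, SD, n = 3). DGCR8 -/- gave 25.6, 12.0 and 6.10 CPM (14.6 ± 9.99, SD, n = 3) on 12, 4 and 2 counts, a range that overlapped induced wild type. Untreated wild type at 122 CPM and untreated E518K at 133 CPM both fell among the induced E518K clones with TMM, but on pRPM, at 40.5 and 22.0, both lay below the induced E518K range of 65.8 to 86.2.

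mmu-miR-222-5p was close to the limit of detection. It had 0, 10 and 34 counts in induced wild type, 24, 6 and 8 in induced E518K, 0, 0 and 2 in DGCR8 -/-, 25 in the untreated library of wild type and 2 in that of E518K. Its means were 3.11 ± 3.15 CPM in induced wild type and 9.58 ± 5.52 CPM in induced E518K (SD, n = 3 each), and the libraries of those groups overlapped. The highest single value was 36.4 CPM in untreated wild type (19.1 to 63.0). In the 2 DGCR8 -/- libraries with 0 counts the limit that 0 counts allow was 12.8 and 18 CPM, above the level in induced wild type, so a difference between those groups was not detectable at this depth.

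**Figure D1:**
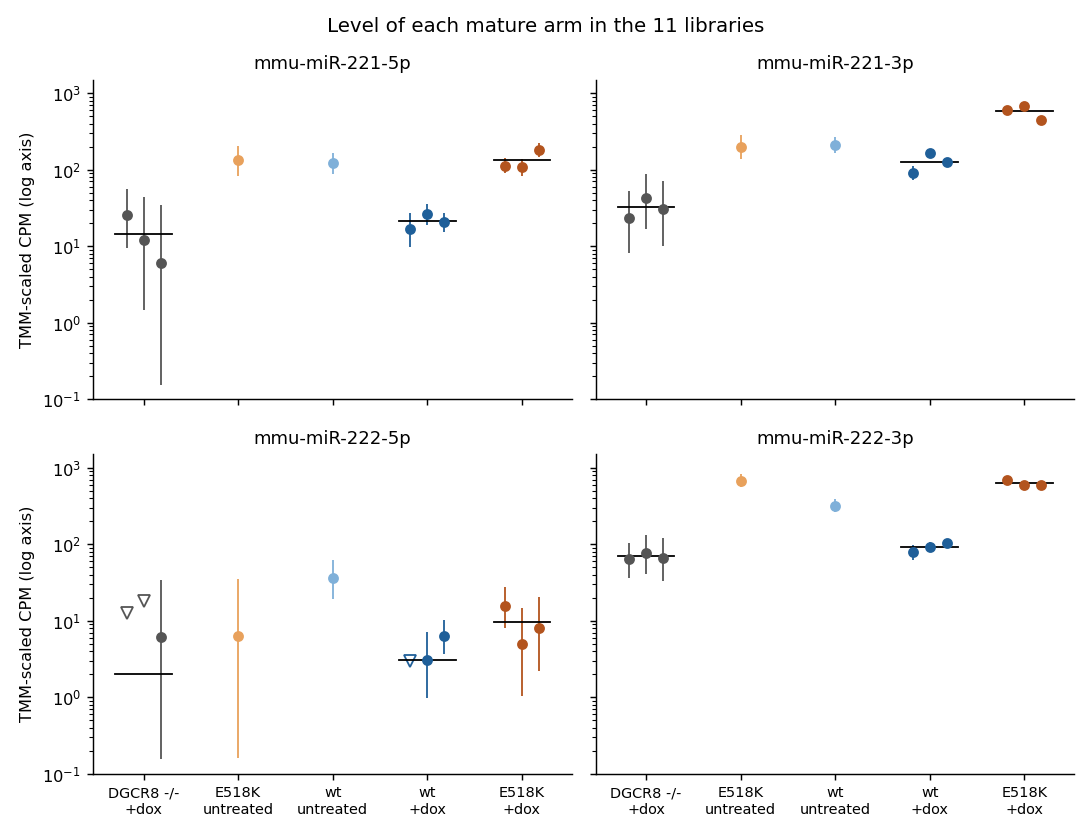
Level of each arm in the 11 libraries (y axis, TMM-scaled CPM, log axis) by group (x axis). Points are libraries with exact 95% Poisson intervals, black lines are means of 3 libraries, and open triangles mark the level of 6 counts where a library had 0; the E518K points of both 3p arms lie above all induced wild-type points, and the DGCR8 -/- points of mmu-miR-222-3p lie beside the wild-type ones.

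Together the 4 arms held 0.0167 ± 0.00625% of all miRNA counts in induced wild type, 0.123 ± 0.0371% in induced E518K and 0.0243 ± 0.00272% in DGCR8 -/- (SD, n = 3 each), while untreated wild type had 0.0333% and untreated E518K 0.122%. By mean level, mmu-miR-222-3p ranked 230th of 1966 in induced wild type, 86th in induced E518K, 118th in DGCR8 -/-, 122nd in untreated wild type and 61st in E518K without doxycycline. mmu-miR-221-3p ranked 205th, 91st, 178th, 149th and 110th in the same order. The pair was a minor part of every library, and the 3p arm that ranked higher was miR-221-3p in induced wild type and miR-222-3p in the other 4 groups.

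Induced E518K was set against induced wild type to ask how the substitution changes what the complex yields. With TMM, the fitted log2 changes were 2.77 ± 0.42 for mmu-miR-222-3p, 2.65 ± 0.48 for mmu-miR-221-5p, 2.19 ± 0.41 for mmu-miR-221-3p and 1.47 ± 0.67 for mmu-miR-222-5p (SE), all higher in E518K. Scaling on the summed counts of 13 miRNAs known to need no DGCR8, where the most abundant weigh most, instead gave -0.01, -0.11, -0.60 and -1.28. All changes moved down together under that scaling: the median over the 730 tested miRNAs was -0.14 with TMM and -2.90 with the list. The place of the 4 arms in the order of all changes depended less on the scaling, since a scaling moves all miRNAs of a comparison nearly alike. Similar ranks across scalings are therefore close to fixed in advance and give no further support. From the highest change down, mmu-miR-222-3p was 104th of 730, mmu-miR-221-5p 117th, and mmu-miR-221-3p 152nd; over 4 other scalings mmu-miR-222-3p ranged from 101st to 113th. In this comparison edgeR called 28.2% of the 730 miRNAs higher in E518K and 35.3% lower. Some of the 730 entries had identical values, such as mmu-miR-374b-5p and mmu-miR-374c-3p. These shares, and those of the other comparisons, therefore count some reads repeatedly. The E518K libraries lay above all wild-type libraries for 25.8% of the tested miRNAs and below them for 38.8%; they lay above for 3 of the 4 arms, from which nothing is read, since the members were chosen with these values known. With the list scaling, calls went from 206 higher and 258 lower to 12 higher and 498 lower. Clone 16 of the wild type weighed most on the values: without it the change of mmu-miR-221-3p was 2.86 and that of mmu-miR-222-3p was 3.57, and the calls were 250 higher and 164 lower.

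DGCR8 -/- was set against the same induced wild-type libraries to ask how much of each arm needs DGCR8. Both 3p arms were lower in DGCR8 -/- with TMM, but for mmu-miR-222-3p no direction held across scalings. Its fitted log2 change was -0.41 ± 0.43 (SE) with TMM, -0.33 with DESeq2 size factors, 1.16 on total counts, -2.30 on the authors' scaled values and -5.61 on the DGCR8-independent list. The change of mmu-miR-221-3p was below 0 under all 5: -2.01 ± 0.47 (SE) with TMM, then -1.95, -0.41, -3.87 and -7.23. mmu-miR-221-5p, at -0.46 ± 0.58 (SE) with TMM, turned to 1.16 on total counts. The median of the 730 tested miRNAs was -3.54 with TMM, and -3.49, -2.03, -5.19 and -8.23 with the others. All 4 arms lay above the median under each of the 5 scalings. A scaling moves arms and median nearly alike, so these are not 5 separate checks. Many of the tested miRNAs had 0 counts in DGCR8 -/-. With each of those given the smallest change that the limit of 6 counts allows, the TMM median was -0.24. That change is 0 where the limit lies above the wild-type level. The value is therefore only a bound, and the changes of the arms cannot be ranked against it. By order, mmu-miR-222-3p was 267th of 730 from the highest change and mmu-miR-221-3p 306th. edgeR called 30.0% of the tested miRNAs higher in DGCR8 -/- and 58.4% lower (219 and 426 miRNAs with TMM; 26 and 536 with the list scaling). With TMM the DGCR8 -/- libraries lay above all wild-type libraries for 24.9% of the tested miRNAs and below them for 60.0%. They lay below for mmu-miR-222-3p and mmu-miR-221-3p with that scaling.

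Induced E518K against DGCR8 -/- gave the one set of fitted changes that kept its direction under all 5 scalings for all 4 arms. For mmu-miR-222-5p (2.39 ± 1.14 SE with TMM) no direction can be read from it. That arm had 0, 0 and 2 counts in DGCR8 -/-, and its libraries overlapped. With TMM the log2 changes were 4.20 ± 0.49 for mmu-miR-221-3p, 3.18 ± 0.45 for mmu-miR-222-3p and 3.11 ± 0.57 for mmu-miR-221-5p (SE), all higher in E518K and without overlap of the libraries. The values for mmu-miR-222-3p ran from 1.98 on total counts to 5.60 on the list, and those for mmu-miR-221-3p from 3.05 to 6.63. The size of each change depended on single libraries: without clone 15 it was 4.08 for mmu-miR-222-3p and 5.23 for mmu-miR-221-3p, and without DGCR8 -/- library 3 it was 2.38 and 3.41. The background was 41.9% of tested miRNAs called higher in E518K and 26.2% called lower by edgeR, with a median change of 1.35, and 42.7% and 24.8% whose libraries lay wholly above or below. Calls were 250 higher and 249 lower on total counts, 380 and 61 on the authors' scaled values, 412 and 30 on the list, and 342 and 124 without clone 15. All 3 comparisons share groups with each other and are not independent.

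**Figure D2:**
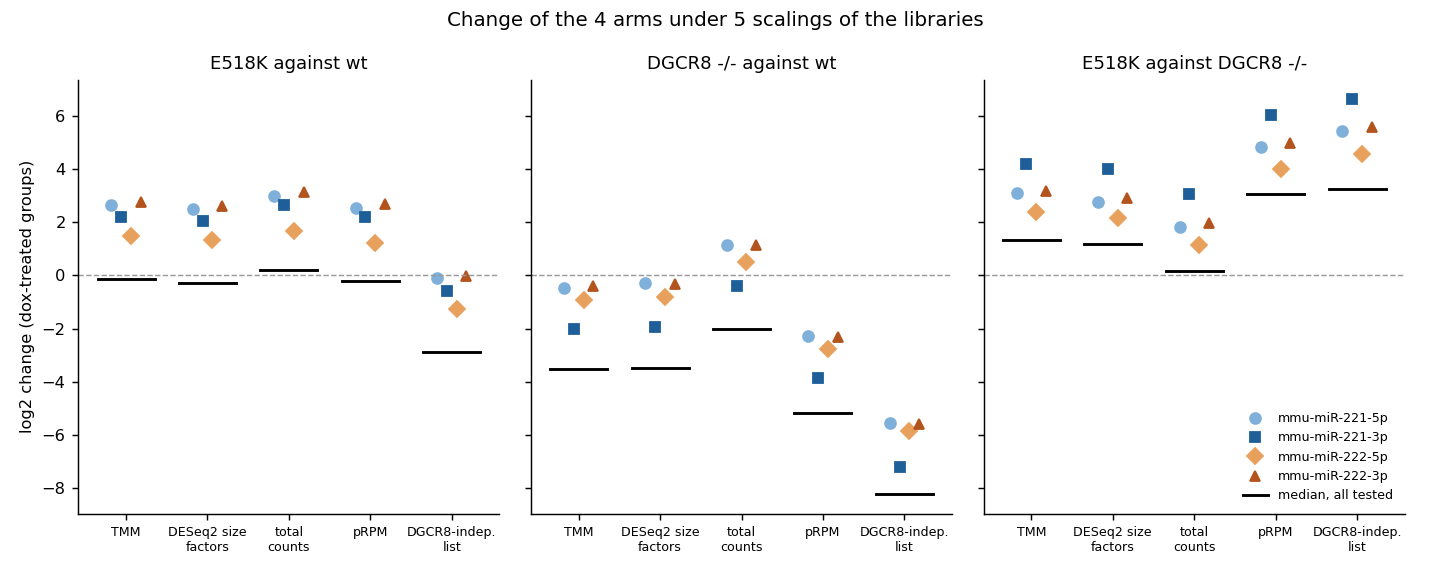
Log2 change of the 4 arms (symbols) and the median of all 730 tested miRNAs (black bars) in the 3 comparisons of doxycycline-treated groups, under 5 ways of scaling the libraries (x axis). In E518K against wild type the arms lie at 1.24 to 3.13 under 4 scalings and at or below 0 on the DGCR8-independent list. Every arm lies above the median in every column, but a scaling moves arms and median nearly alike, so the columns are not separate checks.

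**Figure D3:**
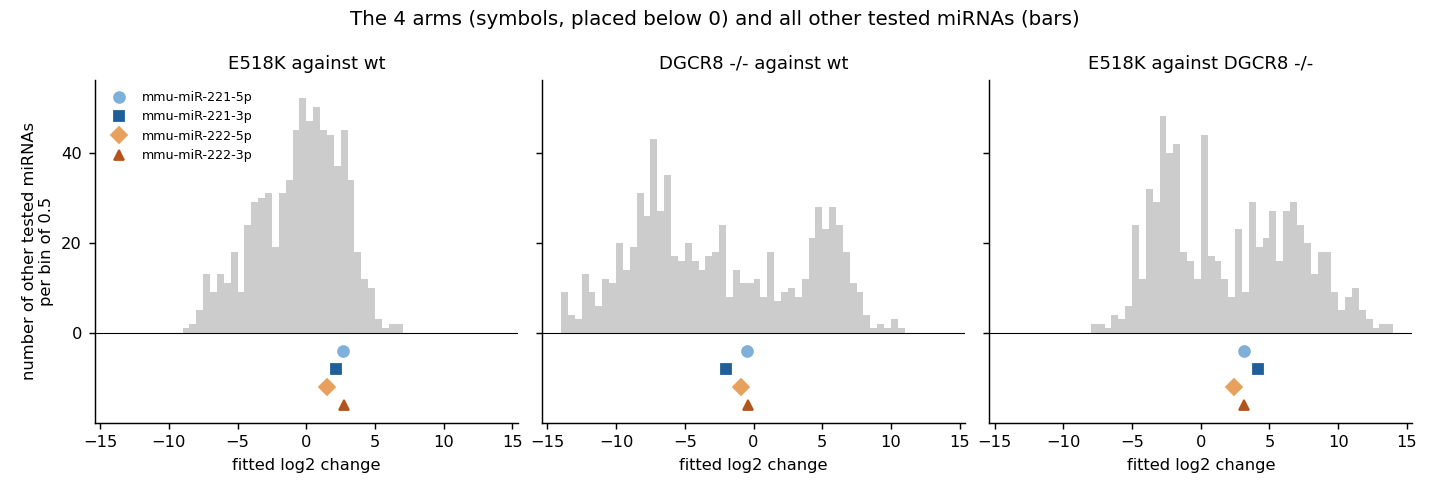
Fitted log2 changes with TMM (x axis) of the other tested miRNAs (grey bars, number per bin of 0.5, values beyond 14 in the outermost bars) and of the 4 arms (symbols, placed below the axis only to be seen). The arms sit right of centre in E518K against wild type, and in DGCR8 -/- against wild type they sit between the mass of miRNAs that fell and the mass that rose.

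The DGCR8-independent list shows what the last scaling assumes. Of its 12 tested members of 13, edgeR called 10 higher in E518K than in wild type (median log2 change 2.75) and 11 higher in DGCR8 -/- (median 4.79), none lower in either; on its own scaling 0 were higher and 3 lower in E518K. mmu-miR-1839-5p, from a small nucleolar RNA, went from 806 CPM in induced wild type to 3369 CPM in E518K (log2 change 2.06 ± 0.40 SE, edgeR adjusted p = 1.4e-06) and 20602 CPM in DGCR8 -/-. mmu-miR-1983, from a transfer RNA gene, went from 440.5 to 4095 CPM in E518K (3.22 ± 0.42 SE, edgeR adjusted p = 5.7e-13) and 16582 CPM in DGCR8 -/-. Set beside these, mmu-miR-222-3p and the list's median had about the same change in E518K (2.77 and 2.75), while in DGCR8 -/- the list's median was 4.79 and mmu-miR-222-3p was at -0.41.

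The ratio of mmu-miR-222-3p to mmu-miR-221-3p within a library needs no scaling. It was 0.871, 0.572 and 0.816 in induced wild type (0.753 ± 0.159, SD, n = 3) and 1.15, 0.874 and 1.33 in induced E518K (1.12 ± 0.228, SD, n = 3). The E518K ratios lay above the wild-type ones, but only by 0.874 in clone 13 against 0.871 in clone 10, and the intervals of those libraries overlapped (0.757 to 1.01 and 0.638 to 1.19). In DGCR8 -/- the ratio was 2.73, 1.86 and 2.20 (2.26 ± 0.438, SD, n = 3), above all 6 induced libraries, though with intervals as wide as 0.973 to 9.03. Untreated wild type gave 1.53 (1.12 to 2.09) and untreated E518K 3.41 (2.28 to 5.25). miR-221-3p was the more abundant of the pair in all 3 induced wild-type libraries and in clone 13, and miR-222-3p in the other 7 libraries. For clone 8 the ratio went from 3.41 without doxycycline to 1.15 with it, and for clone 10 from 1.53 to 0.871, with no overlap of the intervals in clone 8.

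**Figure D4:**
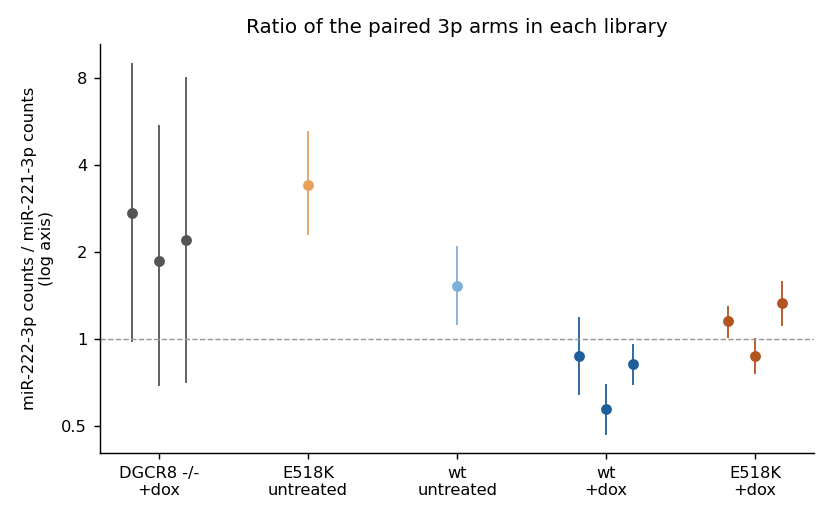
Counts of mmu-miR-222-3p divided by counts of mmu-miR-221-3p in each library (y axis, log axis) by group (x axis), with exact 95% binomial intervals on halved counts. The 3 induced wild-type points lie below 1 (dashed line), the 3 DGCR8 -/- points at 1.86 to 2.73, and untreated E518K is highest at 3.41.

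Most other hairpin pairs of 1 transcript shifted their ratio more, but most of those ratios set unlike arms side by side. Only miR-191 with miR-425 and miR-200c with miR-141 were counted by the same arm of both hairpins. From induced wild type to E518K their log2 ratios moved by -4.15 and -0.156. In the others a 5p arm of 1 hairpin was set against a 3p arm of the other. Those shifts therefore mix the choice of arm with the balance of the hairpins, unlike the ratio of the 2 3p arms here. Of 17 such pairs listed, 10 had an arm of each hairpin tested. Their log2 ratio moved by an absolute 0.156 to 5.46 between induced wild type and E518K (median 1.46), against 0.569 for miR-222-3p over miR-221-3p; 2 of the 10 moved less. The libraries did not overlap in 5 of the 10 other pairs. Between induced wild type and DGCR8 -/- the shift was 1.53 for miR-222-3p over miR-221-3p; the other pairs are not set beside it, since several of them had fewer than 6 counts in all 3 DGCR8 -/- libraries together.

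The 3p arm held most counts of both hairpins in all libraries except DGCR8 -/- library 1. For Mir221 its share was 84.5, 86.2 and 86.1% in induced wild type (85.6 ± 0.933%, SD, n = 3) and 84.3, 86.5 and 71.2% in induced E518K (80.7 ± 8.26%, SD, n = 3). E518K clone 15 stood apart, with an exact interval of 65.8 to 76.2%, below those of the other 5 induced clones. Without doxycycline the share was 63.2% in wild type (53.6 to 72.0%) and 60.0% in E518K (45.6 to 73.3%), each below the value of the same clone with doxycycline and outside its interval (76.4 to 90.7% in clone 10 and 81.0 to 87.3% in clone 8). In DGCR8 -/- it was 47.8, 77.8 and 83.3%, with the lowest resting on 23 counts in all and an interval of 19.0 to 77.8%. For Mir222 the share ran from 94.3 to 100% in induced wild type, 97.8 to 99.2% in the induced E518K clones and 91.7 to 100% in DGCR8 -/-, and was 89.8% in untreated wild type and 99.1% in E518K without doxycycline. The miR-222-5p strand was thus a small part of its hairpin in all groups. Against 196 other hairpins with both arms tested, the log2 ratio of 5p to 3p moved by 0.426 for miR-221 and -0.658 for miR-222 from wild type to E518K, where the median absolute move was 0.650.

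**Figure D5:**
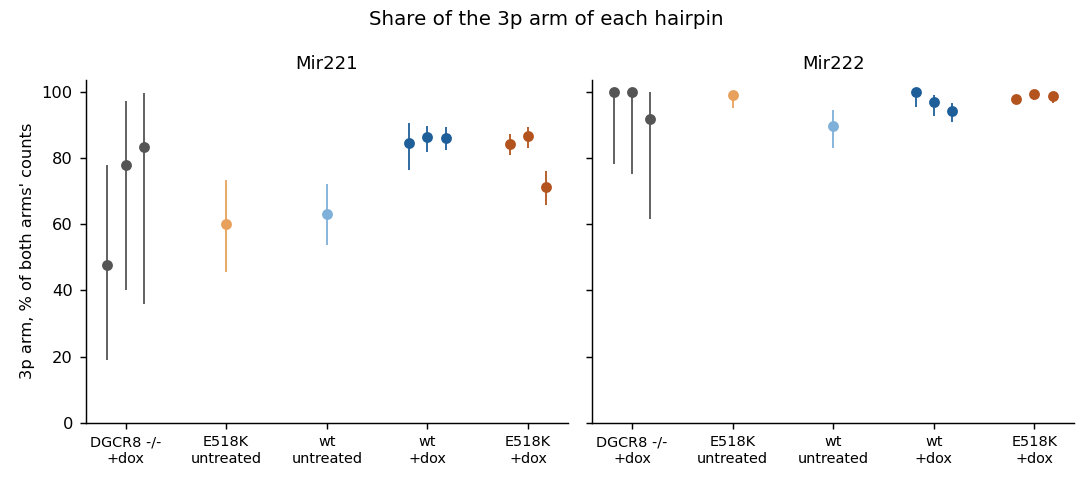
Share of the 3p arm in the counts of both arms of Mir221 (left) and Mir222 (right) in each library (y axis, percent), by group (x axis), with exact 95% binomial intervals on halved counts. For Mir221 the untreated libraries lie at 60.0 and 63.2%, below 5 of the 6 induced clones at 84.3 to 86.5%; clone 15 is the sixth at 71.2%.

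The untreated clones have 1 library each, so no test was possible. Both lay above the DGCR8 -/- mean with TMM, untreated wild type by 4.60-fold and untreated E518K by 9.80-fold for mmu-miR-222-3p, and by 6.56-fold and 6.26-fold for mmu-miR-221-3p. On the authors' scaled values these folds were 8.72, 9.25, 12.5 and 5.95. On total counts, untreated wild type did not stand apart for mmu-miR-222-3p: it had 154.8 per 1000000 counts, inside the DGCR8 -/- range of 129.9 to 156, while untreated E518K had 813. For mmu-miR-221-3p untreated wild type had 101 on total counts and untreated E518K 238, against 52.7 to 84.0 in DGCR8 -/-. From untreated to doxycycline in wild-type clone 10, the log2 changes with TMM were -2.01 for mmu-miR-222-3p, -1.20 for mmu-miR-221-3p and -2.88 for mmu-miR-221-5p, but 1.13, 1.94 and 0.27 on the DGCR8-independent list. The raw counts of mmu-miR-222-3p went from 220 to 162 in that clone while its total count rose from 1421247 to 3394216. In E518K clone 8, mmu-miR-221-3p was higher with doxycycline under each of the 5 scalings, by 1.61 with TMM and by 1.12 to 4.89 over the others. mmu-miR-222-3p in clone 8 changed by 0.03 with TMM and -0.45 on total counts, and by 0.37 to 3.31 under the other 3.

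The lists fixed for comparison place the pair among its neighbours. Of 42 tested X-linked miRNAs with 1 hairpin outside the testis cluster, edgeR called 4 higher and 20 lower in induced E518K than in wild type (28.2% and 35.3% of all tested). Their median log2 change was -1.04, against -0.14 for all tested. It was -0.85 with miRNAs at 0 given the smallest change that the limit of 6 counts allows. The 4, named after their values were seen, were mmu-let-7f-2-3p (3.10 ± 0.73 SE), mmu-miR-92a-2-5p (1.71 ± 0.46 SE), mmu-miR-351-5p (1.39 ± 0.49 SE) and mmu-miR-652-3p (1.06 ± 0.46 SE), and none of the 42 was called higher on the list scaling. The most abundant of the 42, mmu-miR-672-5p, fell from 4658 to 131 CPM (log2 change -5.15 ± 0.45 SE, edgeR adjusted p = 4.2e-26) and mmu-miR-363-3p of the miR-106a to miR-363 cluster from 4161 to 1814 CPM (-1.20 ± 0.38 SE, edgeR adjusted p = 0.0031). In DGCR8 -/-, 32 of the 42 were called lower and 4 higher with TMM, where 58.4% and 30.0% of all tested were called; the counts were 21 and 4 on total counts and 38 and 0 on the list. mmu-miR-363-3p had 0 counts in all 3 libraries. The 4 higher with TMM were mmu-miR-5132-5p, mmu-miR-7092-5p, mmu-miR-7091-3p and mmu-miR-7091-5p. Of 6 tested miRNAs of the X-linked testis cluster, edgeR called 5 lower in E518K than in wild type (mmu-miR-465b-5p, mmu-miR-465c-3p, mmu-miR-470-5p, mmu-miR-741-3p and mmu-miR-871-3p, all at a mean under 30 CPM in both groups), where 35.3% of all tested were called lower, while mmu-miR-881-3p stood at 33.3 CPM in E518K and 43.6 CPM in wild type (edgeR adjusted p = 0.48).

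The Cdkn1a-repressing miRNAs of stem cells, read beside the Cdkn1b-repressing pair, moved otherwise. All 6 tested were called lower in DGCR8 -/- than in wild type by edgeR under each of the 5 scalings, with a median log2 change of -9.67 with TMM. That median was -6.99 with miRNAs at 0 given the smallest change that the limit of 6 counts allows. In E518K against wild type 3 of the 6 were called lower (35.3% of all tested) and 0 higher with TMM, and all 6 lower on the list scaling. With TMM the most abundant, mmu-miR-295-3p and mmu-miR-294-3p, did not pass (14920 and 19052 CPM, adjusted p = 0.42; 7110 and 6187 CPM, adjusted p = 0.65; edgeR). In DGCR8 -/- the mean of mmu-miR-222-3p was near that of mmu-miR-295-3p (69.7 and 63.5 CPM), where in induced wild type the latter was at 19052 CPM and the former at 92.3 CPM.

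The miRNAs whose pattern over the 11 libraries was most like that of each 3p arm were found by the root-mean-square difference of centred log2(CPM + 1). For mmu-miR-221-3p they were mmu-let-7c-2-3p (0.677), mmu-let-7g-5p (0.700), mmu-miR-127-5p (0.717), mmu-let-7a-1-3p (0.727) and mmu-miR-652-3p (0.773). For mmu-miR-222-3p they were mmu-miR-29a-3p (0.778), mmu-let-7f-5p (0.780), mmu-miR-127-5p (0.876), mmu-let-7a-5p (1.05) and mmu-miR-326-3p (1.07). The distance between the 2 arms themselves was 0.757, given for this pseudocount only. By it mmu-miR-222-3p was slightly nearer to its pair partner than to mmu-miR-29a-3p (0.778), the next nearest. For mmu-miR-221-3p, 4 miRNAs were nearer than its partner was. mmu-miR-127-5p, of the imprinted Dlk1-Dio3 region, was the 1 miRNA in both lists, at 566 CPM in induced wild type, 1823 in induced E518K and 223 in DGCR8 -/-. mmu-miR-29a-3p stood at 75.9, 766 and 183 CPM in these groups. mmu-let-7c-2-3p, mmu-let-7a-1-3p and mmu-miR-326-3p had 0 counts in all 3 DGCR8 -/- libraries, so their nearness rests there on the pseudocount. The libraries share depth and scaling, and the order depended on the pseudocount: with 10 CPM in place of 1, none of the 5 nearest to mmu-miR-221-3p and 3 of the 5 nearest to mmu-miR-222-3p were the same.

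Markers of other cells were counted in the same libraries, since the pair is also abundant in fibroblasts and endothelium. All 7 stem cell marker miRNAs had counts, with a summed level of 85120 CPM or more in induced wild type, 34263 CPM or more in induced E518K and at most 238 CPM in DGCR8 -/-, where 1 of the 7 was at 0; untreated E518K had 2322 CPM and untreated wild type 72217 CPM. All 7 fibroblast markers, led by mmu-miR-143-3p and the mmu-miR-199 arms, also had counts in DGCR8 -/-. They are not 7 separate markers. In those libraries mmu-miR-199a-3p had 278, 506 and 348 counts and mmu-miR-199b-3p 139, 253 and 174. These 2 entries kept nearly the same proportion in every library, so the sums may count the same reads repeatedly. With TMM the 7 markers summed to 5796 to 9480 CPM in DGCR8 -/-, 3890 to 5419 CPM in induced wild type and 2308 to 3241 CPM in induced E518K. The untreated libraries had 7612 CPM (wild type) and 8602 CPM (E518K). This order did not hold on pRPM, where the same markers summed lower in every DGCR8 -/- library than in every induced wild-type library. It may not hold under the remaining scalings, for which the sums were not computed. On pRPM all levels of DGCR8 -/- lie lower against induced wild type (median log2 change of all tested -5.19, against -3.54 with TMM). mmu-miR-143-3p was called lower by edgeR in E518K than in wild type (532 and 3025 CPM, log2 change -2.51 ± 0.39 SE, adjusted p = 2.5e-09), while mmu-miR-199a-5p and mmu-miR-199a-3p had changes of 0.77 ± 0.38 and 0.50 ± 0.38 SE that did not pass (adjusted p = 0.065 and 0.24, edgeR). The fibroblast marker mmu-miR-214-3p had at most 12 counts in any library. Both endothelial markers, mmu-miR-126a-3p and mmu-miR-126a-5p, were at 0 in DGCR8 -/-, at a sum of 54.9 to 61.5 CPM in induced E518K and at 527 to 651 CPM in induced wild type. Of the 6 blood markers 5 had counts, summing to at most 394 CPM in induced wild type, 446 CPM in induced E518K and 99 CPM in DGCR8 -/-, and mmu-miR-223-3p was at 0 throughout. The liver marker mmu-miR-122-5p was at 1.21 to 3.34 CPM in induced wild type, 8.31 to 16.1 CPM in induced E518K (log2 change 2.46 ± 0.60 SE, edgeR adjusted p = 0.00015), 54.0 to 91.5 CPM in DGCR8 -/- and 102 CPM in untreated E518K. The 3 muscle markers summed to 10.6 to 29.1, 18.1 to 32.7 and 51.2 to 162 CPM in induced wild type, induced E518K and DGCR8 -/-, and the 2 neural markers to 786 to 884, 574 to 1258 and 18.3 to 72.0 CPM. The part of other cells in the levels of miR-221 and miR-222 was not tested.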

How the data were processed

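Small RNA libraries of 11 samples were made by the submitters from total RNA with the NEBNext Multiplex Small RNA kit, per the labels' protocols. STAR, bedtools and GRCm38.p6 stand in the submitters' processing notes, without versions, and the counting rule is not given in the sources. The authors deposited a table of raw counts per mature miRNA and a table of the same counts on a per-million scale they call pRPM (unit rpm here), per the file headers. What 1 read is worth in the RPM table gave whole reads for 100% of its values within 0.01 reads, and 100% of these equalled the deposited counts. Each library's pRPM total was the same within a doxycycline-treated group (85006 in DGCR8 -/-, 938495 in induced wild type, 683476 in induced E518K). Replicates therefore cannot differ in total on that scale. Changes between groups on it include the difference between these group totals, whose origin is not stated. An edgeR fit on the recovered reads, added after the data were seen, gave the same counts of calls (464, 645 and 497). Since those reads equal the deposited counts, that outcome was fixed in advance and is no check.

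edgeR 4.0.16 (quasi-likelihood, robust, TMM, filterByExpr with a minimum count of 10 and total of 15) was fitted to all 11 libraries in 5 groups with no covariate, and p-values were adjusted by Benjamini-Hochberg over 730 miRNAs at 0.05. The SE of a change was derived from that fit, as its absolute log2 value over the square root of its F statistic. The median of the degrees of freedom was 814 for 11 libraries, so each SE rests mostly on spread shared across miRNAs. Alternatives were DESeq2 1.42.0 size factors and test, total counts, the pRPM scale, scaling on the DGCR8-independent list, no filter, fits of 2 groups and leaving out each library. The fit was tested on simulated data. RNAfold 2.7.2 folded the hairpins. Sequences came from RefSeq. The list of 13 DGCR8-independent miRNAs, the X-linked, hairpin pair, Cdkn1a and marker lists, and the 4 members were chosen with earlier results of these data known; named miRNAs were the members, any with the same seed, the 5 nearest to each 3p arm, and the 2 most abundant of a list in induced wild type.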

Additional observations from a re-analysis of the deposited data

Results flagged for a closer look

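Clone 10 (wild type) and clone 8 (E518K) differed in the direction of the change from untreated to doxycycline with TMM for 3 arms. The log2 change of mmu-miR-221-3p was -1.20 in clone 10 and 1.61 in clone 8. That of mmu-miR-222-3p was -2.01 in clone 10 and 0.0316, close to no change, in clone 8. For mmu-miR-222-5p it was -3.63 in clone 10, at least 12.4-fold lower, computed with the limit of 6 counts in place of 0, and 1.31 in clone 8, where the untreated library had 2 counts (6.35 CPM, exact 95% Poisson interval 0.161 to 35.4 CPM). With 1 library in each state, the difference between the clones was not tested. On the DGCR8-independent list the values of mmu-miR-221-3p were 1.94 in clone 10 and 4.89 in clone 8, and those of mmu-miR-222-3p 1.13 and 3.31, the same sign in both clones, while those of mmu-miR-222-5p were -0.49, again against the limit of 6 counts, and 4.59. On total counts mmu-miR-222-3p was below 0 in both clones (-1.70 and -0.45).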

How the results depend on the processing

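Depth limits the DGCR8 -/- and untreated E518K libraries most: the arms rest in DGCR8 -/- on 0 to 30 counts. No paired analysis was possible because the groups compared share fewer than 2 replicate numbers (clone 10 in both wild-type groups, clone 8 in both E518K groups, none between the induced groups). Of 271 alternatives over all results, 179 kept the value within the replicate spread or the count within 1.5 times, 68 moved it and 24 turned its sign. The cause was not tested. The 179 include the fits on recovered reads, which could not differ. In fits of 2 groups with DGCR8 -/-, mmu-miR-222-5p did not pass the filter and gave no value. The total of higher and lower calls stayed within 1.5 times of the reported one in each comparison, but its split did not, as given beside each comparison.

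E518K against wild type: mmu-miR-221-3p was 2.64 on total counts and -0.60 on the DGCR8-independent list, and 1.87 to 2.86 leaving out 1 library; mmu-miR-222-3p was 3.13 on total counts, -0.01 (-0.0080) on the list, and 2.52 to 3.57 leaving out wild-type clones 10 or 16. On the list mmu-miR-221-5p was -0.11 and mmu-miR-222-5p -1.28.

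DGCR8 -/- against wild type: mmu-miR-221-3p was -0.41 on total counts, -3.87 on pRPM, -7.23 on the list, and -2.48 to -1.28 leaving out 1 library; mmu-miR-222-3p was 1.16, -2.30, -5.61, and -1.03 to 0.29, with positive values of 0.26 and 0.29 without DGCR8 -/- library 2 or 3, and 0.03 and 0.14 without wild-type clone 10 or 12. On total counts mmu-miR-221-5p was 1.16 and mmu-miR-222-5p 0.52. Leaving out 1 library, mmu-miR-221-5p ran from -1.88 to 0.63 (0.51, 0.63, 0.06 and 0.34 where it turned) and mmu-miR-222-5p from -5.63 to 0.21 (0.19 and 0.21 where it turned).

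E518K against DGCR8 -/-: mmu-miR-221-3p was 3.05 on total counts, 6.05 on pRPM, 6.63 on the list, and 3.41 to 5.23 leaving out 1 library; mmu-miR-222-3p was 2.93 with DESeq2 size factors, 2.94 with the DESeq2 test, 3.02 with no filter, 1.98 on total counts, 4.98 on pRPM, 5.60 on the list, and 2.38 to 4.08 leaving out 1 library.

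Doxycycline against untreated: on the list clone 10 was at 0.27 for mmu-miR-221-5p, 1.94 for mmu-miR-221-3p and 1.13 for mmu-miR-222-3p. In clone 8 mmu-miR-221-5p was 0.10 with DESeq2 size factors, 1.58 on pRPM and 3.04 on the list against -0.24 with TMM, and mmu-miR-222-3p was -0.45 on total counts.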
